A study of Homo sapiens with 6 samples.

Results

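Aminoacyl-tRNA synthetases are the enzymes that join each amino acid to its transfer RNA. The deposited table held 36 protein-coding rows for them among 58825 genes, taken by gene name, with FARSA and FARSB added as the 2 subunits of the cytosolic phenylalanine enzyme. Of these, 17 work in the cytosol, 17 in mitochondria, and GARS and KARS supply both compartments from 1 gene. EPRS, the joined glutamate and proline enzyme of the cytosol, and TARSL2, a threonine enzyme, have names that the rule does not match and are given as related genes. Messenger RNA was sequenced from T24 cells, an established human bladder carcinoma line, with a hairpin against DLGAP5 (shDLGAP5-1) or with a control hairpin (shNC-1), 3 libraries each. A single hairpin in a single line stands for the loss of DLGAP5, a protein of the mitotic spindle. The labels give the control cells the genotype WT and do not say whether libraries of a group came from separate cultures, so the p-values speak to the scatter among these 6 libraries, and that scatter may be technical.

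Charging takes ATP and is the step at which the genetic code is read into amino acids, so every growing cell needs all of these enzymes. Mitochondria translate their own transcripts and have a separate set, encoded in the nucleus and mostly marked by a 2 at the end of the gene name. Part of the cytosolic set is held in the multi-synthetase complex by the scaffolds AIMP1, AIMP2 and EEF1E1. Several cytosolic genes are known targets of ATF4, the transcription factor of the amino acid response, and WARS is known to be induced by interferon.

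DLGAP5 stood at 5.03, 4.0 and 7.51 FPKM (fragments per kilobase of transcript, scaled to library size) in shDLGAP5-1 cells, against 32.98, 32.7 and 29.7 FPKM in shNC-1 cells. The groups did not overlap, as the labels require (log2 fold change −2.37, standard error 0.19, limma adjusted p = 0.000894). Approximate depth, read from the smallest steps of low values, was 14300000 to 19300000 fragments in shDLGAP5-1 libraries and 22600000 to 28500000 in shNC-1 libraries. Keratins of an epithelial line were present in all libraries (KRT7 at 566 to 855 FPKM), but CDH1 did not exceed 0.167 FPKM, and of 9 urothelial markers PPARG alone reached 1 FPKM in every library. Leukocyte markers summed to 18.2, 8.93 and 741 FPKM in shDLGAP5-1 replicates 1 to 3, against 14.1, 9.92 and 32.1 FPKM in shNC-1 replicates 1 to 3. Of 10 such markers 7 reached 1 FPKM in at least 1 library, and CD3E was listed at 0 in all. LYZ, at 686 FPKM in shDLGAP5-1 replicate 3, made up most of the highest sum.

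Every synthetase gene was expressed. Group means ran from 2.15 FPKM for LARS2 to 197 FPKM for GARS in shDLGAP5-1 cells, and from 2.09 FPKM for PARS2 to 220.1 FPKM for GARS in shNC-1 cells. All 36 passed the filter of at least 1 FPKM in at least 3 libraries, and 35 reached 1 FPKM in every library. The exception was LARS2, with 0.841 FPKM in shDLGAP5-1 replicate 1. The cytosolic genes were the more abundant: their median was 44.2, 53.1 and 47.8 FPKM in the shDLGAP5-1 libraries and 51.9, 45.4 and 53.9 FPKM in the shNC-1 libraries. The mitochondrial median was 8.24, 9.40 and 8.81 FPKM in the shDLGAP5-1 libraries and 7.91, 9.03 and 8.83 FPKM in the shNC-1 libraries. The 36 genes summed to 1347, 1462 and 1406 FPKM in shDLGAP5-1 replicates 1 to 3, against 1525, 1588 and 1571 FPKM in shNC-1 replicates 1 to 3, so the groups did not overlap in this sum.

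Synthetase messages changed little as a family, and those that passed the test were mostly lower. Of 36 genes 8 fell in shDLGAP5-1 cells, which is 22.2% of them, where 9.52% of the 12714 genes tested fell. 1 gene, PARS2, rose, which is 2.78%, where 15.3% of all tested genes rose. The genes that fell included VARS, FARSB and HARS of the cytosol, KARS of both compartments, and IARS2, CARS2 and YARS2 of mitochondria. The log2 fold changes of the falls lay between −0.65 for VARS and −0.36 for KARS. The median over the family was −0.15 on the log2 scale, −0.12 for cytosolic and −0.15 for mitochondrial genes, beside 0.034 over all genes tested. In 13 synthetase genes all shDLGAP5-1 libraries lay below all shNC-1 libraries, a pattern of 18.3% of all tested genes, and in 2 genes, AARS and PARS2, they all lay above, a pattern of 25.6% of tested genes. In bulk RNA a lower message per cell and fewer cells with the message cannot be told apart.

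**Figure D1:**
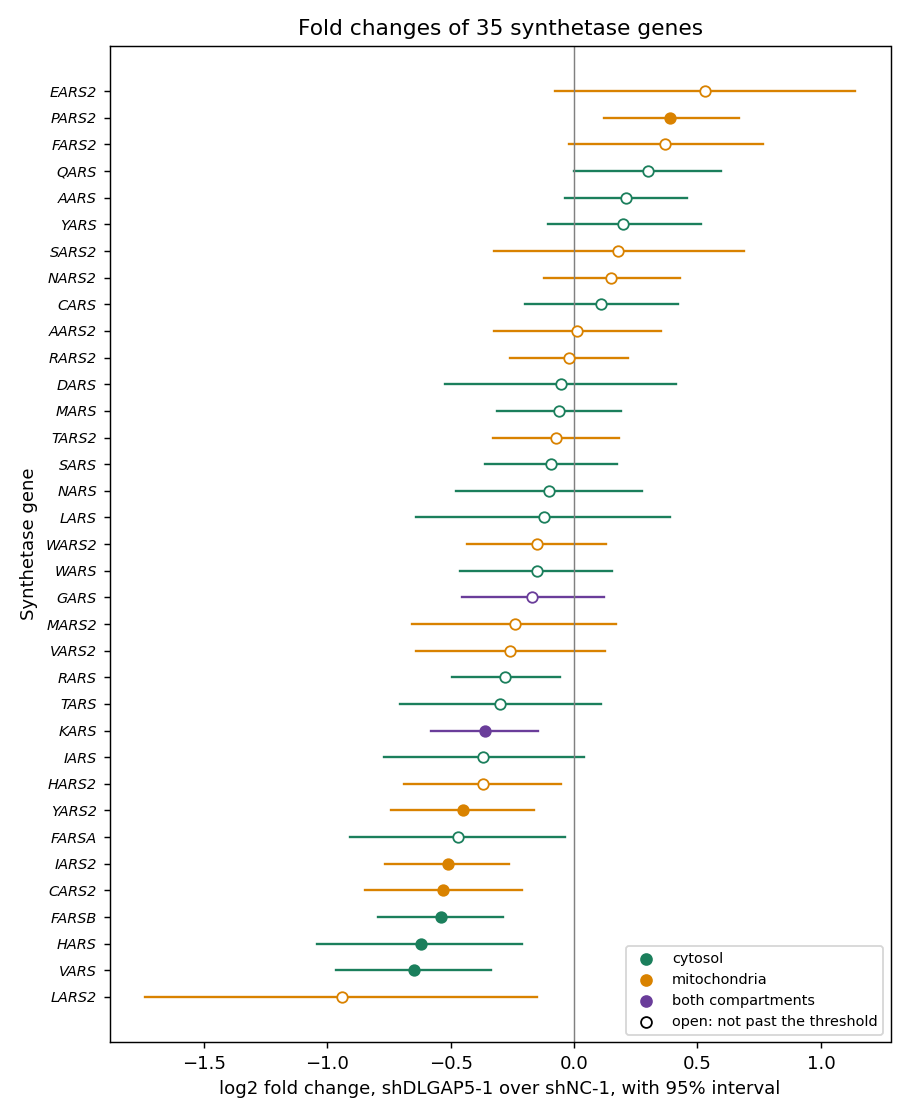
Log2 fold change (shDLGAP5-1 over shNC-1, x axis) of 35 synthetase genes (y axis) from limma, as points with 95% intervals, coloured by compartment, with filled points for genes past the threshold. The 8 filled points are VARS, HARS, FARSB, CARS2, IARS2, YARS2 and KARS on the lower side and PARS2 on the higher side.

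These calls depended on the control libraries. Without shNC-1 replicate 1 or 2, 0 synthetase genes passed in limma in either direction. Without shNC-1 replicate 3 only FARSB, IARS2 and VARS fell. In these fits 1511, 1335 and 1937 of all genes passed, beside 3155 with all libraries. Without shNC-1 replicate 1 or 2, 11 of 36 genes (30.6%) had an unadjusted limma p under 0.05. Over all tested genes the shares were 30.9% and 29.6%. Of the 11, 10 were lower in each fit, or 27.8% of the 36, beside 12.1% and 11.7% of all tested genes. In each fit 1 was higher, or 2.78%, beside 18.8% and 17.9% of all tested genes. Leaving out any 1 shDLGAP5-1 library left 5 falls among the 36 genes. Without shDLGAP5-1 replicates 1, 2 and 3 in turn, 7.90%, 6.01% and 10.7% of all tested genes fell. Without shDLGAP5-1 replicate 3, the library with leukocyte transcripts, the falls included FARSB, IARS2, VARS and YARS2, and EARS2 rose in place of PARS2. The direction of all 9 changed genes was the same in each of 15 alternative settings that tested them. Synthetase values were also uneven within shDLGAP5-1 cells: 24 of the 36 genes were lowest in replicate 1. Their median coefficient of variation was 13.8% in shDLGAP5-1 libraries and 6.87% in shNC-1 libraries. The same measures were not taken over all tested genes, so this unevenness cannot be called particular to the family. Over all tested genes, shDLGAP5-1 libraries correlated with each other at 0.959 to 0.970, and shNC-1 libraries at 0.980 to 0.985.

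**Figure D2:**
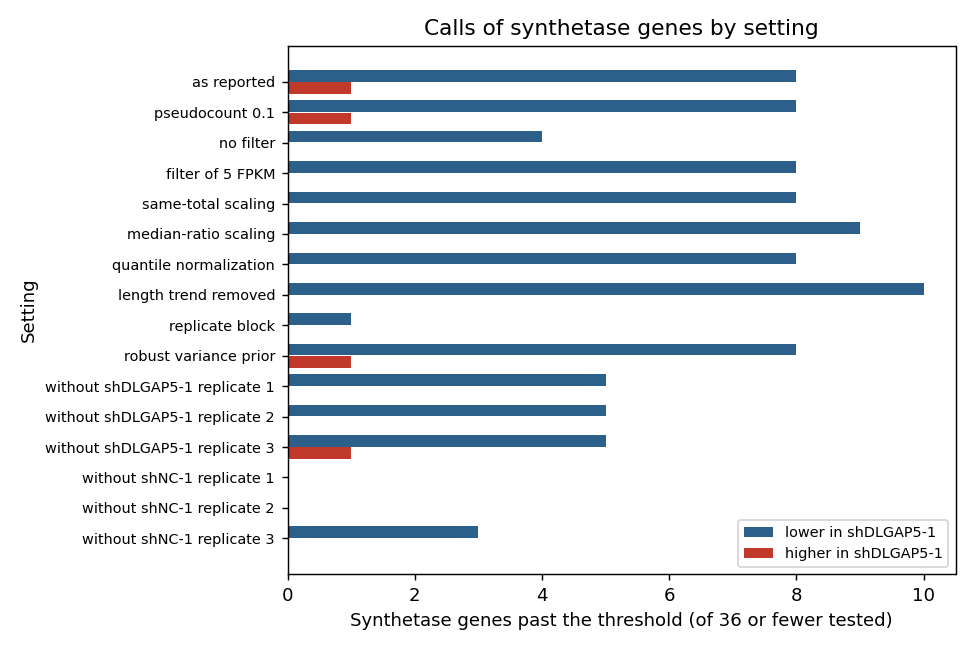
Number of synthetase genes past the threshold (x axis) in the analysis as reported and in 15 alternatives (y axis), lower in shDLGAP5-1 in blue and higher in red. The bars show 8 lower and 1 higher as reported, and none without shNC-1 replicate 1 or 2.

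VARS, the cytosolic valine enzyme, fell most among the changed members. It stood at 19.2, 24.9 and 26.2 FPKM in shDLGAP5-1 replicates 1 to 3, against 37.3, 35.97 and 37.9 FPKM in shNC-1 replicates 1 to 3. Every shDLGAP5-1 library lay below every shNC-1 library, and the mean was 36.8% lower (log2 fold change −0.65, standard error 0.13, limma adjusted p = 0.0146). Of 15 alternatives 13 kept the call, and it was lost without shNC-1 replicate 1 (adjusted p = 0.0547) or 2 (adjusted p = 0.0534). VARS is a minus-strand gene at chr6:31777518-31795752 (GRCh38). VARS2, its mitochondrial counterpart, stood at 5.39, 7.74 and 8.22 FPKM in shDLGAP5-1 cells and 7.91, 9.03 and 8.83 FPKM in shNC-1 cells, overlapping groups with a log2 fold change of −0.26 (adjusted p = 0.284). VARS2 shares 1858 exonic bases with GTF2H4 on the same strand, and GTF2H4 had 5.76, 5.59 and 13.6 FPKM in shDLGAP5-1 cells and 5.94, 3.60 and 3.85 FPKM in shNC-1 cells.

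The cytosolic phenylalanine enzyme is a tetramer of FARSA, the catalytic alpha subunit, and FARSB, the beta subunit. FARSB (chr2:222566899-222656337, minus strand) fell, with 8.16, 9.18 and 9.58 FPKM in shDLGAP5-1 cells, against 13.3, 13.9 and 13.3 FPKM in shNC-1 cells (log2 fold change −0.54, standard error 0.11, limma adjusted p = 0.0130). Its call was lost without shNC-1 replicate 1 (adjusted p = 0.0521) or 2 (adjusted p = 0.0665). FARSA stood at 16.5, 21.5 and 25.5 FPKM in shDLGAP5-1 cells and 35.5, 26.9 and 26.4 FPKM in shNC-1 cells. Its groups did not overlap either, but the spread was wider and the test was not passed (log2 fold change −0.47, adjusted p = 0.107). The log2 ratio of FARSB to FARSA was −1.02, −1.23 and −1.41 in shDLGAP5-1 replicates 1 to 3 and −1.42, −0.95 and −0.99 in shNC-1 replicates 1 to 3, with overlapping groups. FARS2, the single-chain mitochondrial enzyme, had 8.07, 8.43 and 6.01 FPKM in shDLGAP5-1 cells and 4.75, 5.33 and 6.60 FPKM in shNC-1 cells, a log2 fold change of 0.37 that did not pass (adjusted p = 0.147).

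HARS, the cytosolic histidine enzyme, and HARS2, its mitochondrial paralog, lie head to head on chromosome 5. The RefSeq starts of the pair are 85 bases apart, and the stretch that their promoter windows share is printed because both genes were lower in every shDLGAP5-1 library than in any shNC-1 library. It is the plus strand of chr5:140691321-140691504 in GRCh38.p14, 184 bases with a GC content of 61.4%, and the capitals mark the bases from the start of HARS, read to the left, to the start of HARS2, read to the right.
HARS and HARS2: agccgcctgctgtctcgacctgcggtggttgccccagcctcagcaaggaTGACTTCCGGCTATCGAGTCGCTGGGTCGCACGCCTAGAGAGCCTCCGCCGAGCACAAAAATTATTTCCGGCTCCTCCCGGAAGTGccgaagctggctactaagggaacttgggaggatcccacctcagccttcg
None of the C/EBP-ATF, interferon, STAT or E2F motifs searched, whose letters are given with the ATF4 targets, was in the promoter window of either gene.

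HARS (chr5:140673904-140691537, minus strand) had 20.6, 33.3 and 24.03 FPKM in shDLGAP5-1 cells, against 43.3, 37.2 and 39.2 FPKM in shNC-1 cells. All shDLGAP5-1 libraries were lower (log2 fold change −0.62, standard error 0.18, limma adjusted p = 0.0407). Among fits without 1 library the call held without shDLGAP5-1 replicate 2 (adjusted p = 0.0162) and was lost without each other library, at adjusted p of 0.0796 to 0.127. HARS2 had 11.4, 11.7 and 12.5 FPKM in shDLGAP5-1 cells, against 16.9, 13.0 and 17.4 FPKM in shNC-1 cells, with no overlap but an adjusted p of 0.0877 (log2 fold change −0.37). It passed with the length trend removed (limma adjusted p = 0.0335). Annotated exons of the pair overlap by 437 bases on opposite strands, and the use of strand in the counting is not given in the sources used here, so reads of that stretch cannot be assigned. HARS also overlaps WDR55 by 221 exonic bases, and HARS2 overlaps ZMAT2 on the same strand by 152 exonic bases.

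KARS (chr16:75627474-75648643, minus strand), the lysine enzyme of cytosol and mitochondria and a member of the multi-synthetase complex, was the most abundant gene that fell. It had 80.0, 73.1 and 75.3 FPKM in shDLGAP5-1 cells, against 97.4, 97.7 and 99.3 FPKM in shNC-1 cells. The replicates of each group were close together and the groups far apart for a change of this size (log2 fold change −0.36, standard error 0.092, limma adjusted p = 0.0290). Without 1 library the call held only without shDLGAP5-1 replicate 1 (adjusted p = 0.0263), and the other fits gave adjusted p of 0.0538 to 0.117. KARS shares 176 exonic bases with TERF2IP on the opposite strand. GARS, the glycine enzyme of both compartments and the most abundant synthetase, had 210.9, 211.7 and 168.8 FPKM in shDLGAP5-1 cells and 222.6, 218.0 and 219.7 FPKM in shNC-1 cells. Its groups did not overlap, but the difference did not pass (log2 fold change −0.17, adjusted p = 0.354).

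**Figure D3:**
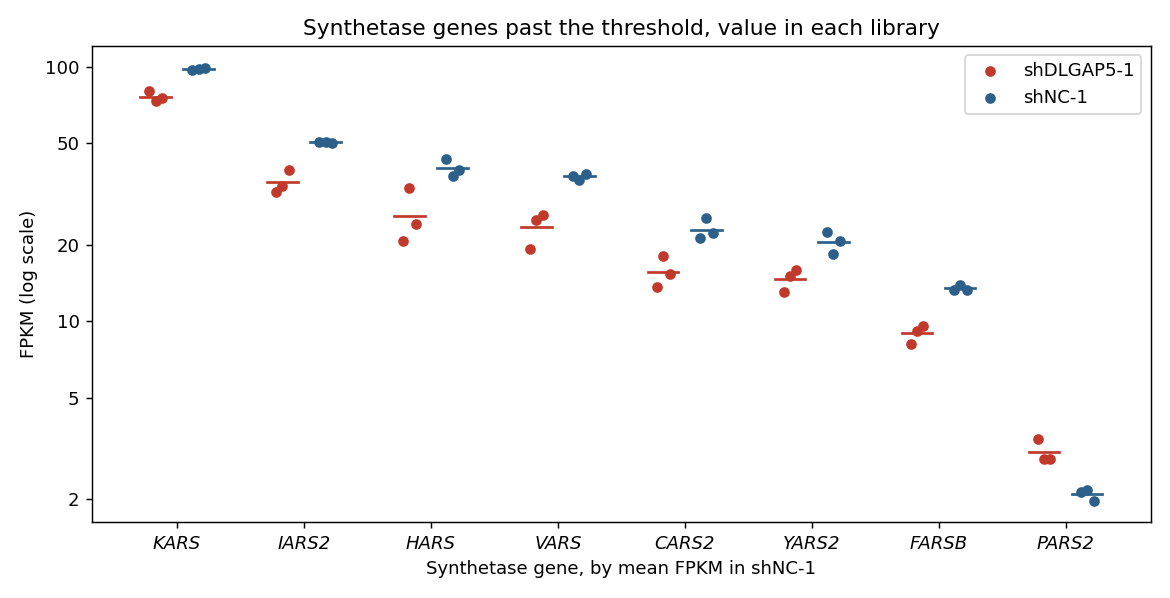
FPKM on a log axis (y) of 8 synthetase genes past the threshold (x axis), with a point for each library, shDLGAP5-1 in red left of shNC-1 in blue, and bars at group means. The 7 genes on the left are lower in every shDLGAP5-1 library, and PARS2, at 2.87 to 3.45 FPKM in shDLGAP5-1 and 1.97 to 2.17 FPKM in shNC-1, is higher.

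Among mitochondrial genes IARS2 (chr1:220094132-220148041, plus strand), the isoleucine enzyme, was the most abundant and fell. It had 32.3, 34.02 and 39.4 FPKM in shDLGAP5-1 cells, against 50.8, 50.6 and 50.1 FPKM in shNC-1 cells (log2 fold change −0.51, standard error 0.11, limma adjusted p = 0.0153). The 3 control values differed by less than 1 FPKM, and all shDLGAP5-1 values were more than 10 FPKM below them. The call was lost without shNC-1 replicate 1 (adjusted p = 0.0614) or 2 (adjusted p = 0.0673). IARS, the cytosolic isoleucine enzyme, had 44.2, 62.5 and 68.9 FPKM in shDLGAP5-1 cells and 79.4, 75.7 and 68.6 FPKM in shNC-1 cells. Its groups overlapped in a single pair of libraries (log2 fold change −0.37, adjusted p = 0.166).

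CARS2 (chr13:110641412-110713603, minus strand), the mitochondrial cysteine enzyme, had 13.6, 18.1 and 15.3 FPKM in shDLGAP5-1 cells, against 21.2, 25.4 and 22.2 FPKM in shNC-1 cells (log2 fold change −0.53, standard error 0.14, limma adjusted p = 0.0302). It was lower in every shDLGAP5-1 library. CARS2 kept its call without shDLGAP5-1 replicate 2 (adjusted p = 0.0302) and lost it without each other library, at adjusted p of 0.0586 to 0.119. CARS2 shares 326 exonic bases with ING1 on the opposite strand. CARS, the cytosolic cysteine enzyme, had 48.1, 62.7 and 51.8 FPKM in shDLGAP5-1 cells and 53.8, 45.4 and 50.5 FPKM in shNC-1 cells, with overlapping groups (log2 fold change 0.11). DARS, a cytosolic member of the multi-synthetase complex, had 59.5, 33.5 and 39.9 FPKM in shDLGAP5-1 cells and 45.7, 44.2 and 44.3 FPKM in shNC-1 cells. Neither CARS nor DARS passed, and DARS (log2 fold change −0.053), which shares 305 exonic bases with the antisense gene DARS-AS1 and whose highest and lowest values were both in shDLGAP5-1 libraries, changed sign to 0.12 without shDLGAP5-1 replicate 2.

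YARS2 (chr12:32727490-32755902, minus strand), the mitochondrial tyrosine enzyme, had 13.1, 15.0 and 15.9 FPKM in shDLGAP5-1 cells, against 22.4, 18.4 and 20.6 FPKM in shNC-1 cells (log2 fold change −0.45, standard error 0.12, limma adjusted p = 0.0359). Without 1 library its call held only without shDLGAP5-1 replicate 3 (adjusted p = 0.0395), and the other fits gave adjusted p of 0.0677 to 0.129. The gene shares 18161 bases of its span with DNM1L on the opposite strand, although no annotated exons overlap. YARS, the cytosolic tyrosine enzyme, had 40.3, 53.1 and 47.8 FPKM in shDLGAP5-1 cells and 39.5, 44.6 and 37.6 FPKM in shNC-1 cells, with overlapping groups and a log2 fold change of 0.20 (adjusted p = 0.293). PARS2 (chr1:54756898-54764523, minus strand), the mitochondrial proline enzyme, was the gene that rose, with 3.45, 2.88 and 2.87 FPKM in shDLGAP5-1 cells, against 2.13, 2.17 and 1.97 FPKM in shNC-1 cells (log2 fold change 0.39, standard error 0.12, limma adjusted p = 0.0468). It was the lowest member in shNC-1 cells, and its call held in 2 of the 15 alternatives. Without 1 library its adjusted p was 0.0536 to 0.135, and with columns scaled to the same total it was 0.114. EPRS, which charges proline in the cytosol, had 35.95, 42.8 and 45.0 FPKM in shDLGAP5-1 cells and 50.3, 49.4 and 46.0 FPKM in shNC-1 cells (log2 fold change −0.23, adjusted p = 0.183).

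Other mitochondrial genes differed more between libraries than between groups, or missed the threshold. LARS2, the leucine enzyme, had the largest fold change in the family but low and scattered values, 0.841, 2.73 and 2.87 FPKM in shDLGAP5-1 cells and 3.88, 7.16 and 3.75 FPKM in shNC-1 cells (log2 fold change −0.94, adjusted p = 0.0821). The groups of LARS2 did not overlap, and it passed with quantile normalization (limma adjusted p = 0.0426). EARS2, the glutamate enzyme, had 12.8, 12.7 and 6.42 FPKM in shDLGAP5-1 cells and 5.56, 7.34 and 7.55 FPKM in shNC-1 cells (log2 fold change 0.53, adjusted p = 0.178). The low value was in replicate 3, the library with leukocyte transcripts, and without that library EARS2 passed (log2 fold change 0.83, adjusted p = 0.0151). The part of those transcripts in this value was not tested. EARS2 also shares 370 exonic bases with UBFD1 on the opposite strand, which had 6.20, 15.7 and 7.84 FPKM in shDLGAP5-1 cells and 16.7, 13.3 and 11.2 FPKM in shNC-1 cells. SARS2, the serine enzyme, went the other way in that library, with 4.92, 4.84 and 8.81 FPKM in shDLGAP5-1 cells and 5.48, 5.37 and 4.61 FPKM in shNC-1 cells. Its log2 fold change of 0.18 turned to −0.063 without replicate 3. SARS2 shares 349 exonic bases with MRPS12 on the opposite strand. MRPS12 had 24.4 to 30.95 FPKM in shDLGAP5-1 cells and 31.6 to 40.6 FPKM in shNC-1 cells. RARS2, for arginine, was the steadiest, at 12.4 to 13.5 FPKM in shDLGAP5-1 cells and 12.6 to 13.7 FPKM in shNC-1 cells (95% interval of the ratio 0.836 to 1.16). TARS2, NARS2, WARS2, AARS2 and MARS2 also did not pass, with log2 fold changes from −0.24 for MARS2 to 0.15 for NARS2.

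Of the other cytosolic genes, SARS, for serine, had 121.3, 146.8 and 135.1 FPKM in shDLGAP5-1 cells and 138.8, 136.9 and 154.0 FPKM in shNC-1 cells, with overlapping groups (log2 fold change −0.094, adjusted p = 0.580). TARS, for threonine, had 100.4, 100 and 89.7 FPKM in shDLGAP5-1 cells and 98.3, 154.6 and 111.0 FPKM in shNC-1 cells (log2 fold change −0.30, adjusted p = 0.246). AARS, for alanine, had 98.1, 117.6 and 107.0 FPKM in shDLGAP5-1 cells and 89.6, 92.6 and 95.5 FPKM in shNC-1 cells. Its shDLGAP5-1 values were all the higher, but the difference did not pass (log2 fold change 0.21, adjusted p = 0.186). By mean level AARS ranked 3 of the 36 genes in shDLGAP5-1 cells and 5 in shNC-1 cells. RARS, for arginine, stood at 41.2 to 45.6 FPKM in shDLGAP5-1 cells and 51.9 to 53.9 FPKM in shNC-1 cells and just missed the threshold (log2 fold change −0.28, adjusted p = 0.0687). It passed with median-ratio scaling (adjusted p = 0.0384) and with the length trend removed (adjusted p = 0.0153).

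The multi-synthetase complex holds 7 of the genes, DARS, IARS, KARS, LARS, MARS, QARS and RARS, together with EPRS and the 3 scaffolds. Of the 7, KARS fell and no other passed, so 14.3% fell, where 9.52% of all tested genes fell and 15.3% rose. An unadjusted limma p under 0.05 was reached by 3 of the 7, with 2 lower and 1 higher. That is 42.9%, beside 38.6% of all tested genes. The median of the 7 log2 fold changes was −0.12. QARS, the glutamine enzyme, had 66.9, 74.1 and 77.1 FPKM in shDLGAP5-1 cells and 54.4, 54.6 and 68.6 FPKM in shNC-1 cells (log2 fold change 0.30, adjusted p = 0.129). MARS, for methionine, had 71.3 to 83.1 FPKM in shDLGAP5-1 cells and 74.3 to 83.5 FPKM in shNC-1 cells, and LARS, for leucine, 30.8 to 46.2 FPKM in shDLGAP5-1 cells and 32.4 to 54.4 FPKM in shNC-1 cells. MARS shares 355 exonic bases with the stress gene DDIT3 on the opposite strand.

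AIMP2, the core scaffold of the complex, fell further than any synthetase that passed. It had 17.1, 17.6 and 18.3 FPKM in shDLGAP5-1 cells, against 32.1, 32.2 and 33.7 FPKM in shNC-1 cells. The groups were far apart (log2 fold change −0.85, standard error 0.093, limma adjusted p = 0.00172), and the call held in all 15 alternatives. AIMP1, the scaffold that binds tRNA, had 18.7, 16.2 and 18.6 FPKM in shDLGAP5-1 cells and 20.7, 19.1 and 22.1 FPKM in shNC-1 cells (log2 fold change −0.20, adjusted p = 0.234). EEF1E1, the third scaffold, had 38.5, 33.3 and 32.2 FPKM in shDLGAP5-1 cells and 25.4, 30.4 and 30.5 FPKM in shNC-1 cells (log2 fold change 0.26, adjusted p = 0.162). The scaffolds thus differed in direction, with only AIMP2 past the threshold.

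Of the 11 members known as ATF4 targets, 0 passed the limma test, where 15.3% of all tested genes rose and 9.52% fell. An unadjusted limma p under 0.05 was reached by 0 of the 11 and by 38.6% of all tested genes. The log2 fold changes of the 11 members had a median of −0.10 and ran from −0.37 for IARS to 0.21 for AARS. 3 of these genes, AARS, YARS and CARS, had positive fold changes and 8 had negative ones. ATF4 binds with C/EBP partners at a composite element. The letters TGATGNAA, searched on both strands, were in the RefSeq promoter window (250 bases before to 50 after the start, GRCh38.p14) of 7 of the 29 members with an entry, or 24.1%, and in 3.63% of all 34796 windows. DARS, AARS2, LARS, YARS, VARS and VARS2 were among those with no entry. The matches are printed on the strand of each gene, with the element in capitals, because they show which synthetase promoters carry it and where.
AARS, chr16:70289675-70289704, minus strand: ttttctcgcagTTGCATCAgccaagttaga
CARS, chr11:3057407-3057436, minus strand: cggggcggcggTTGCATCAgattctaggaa
TARS, chr5:33440956-33440985, plus strand: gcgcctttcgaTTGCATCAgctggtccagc
NARS, chr18:57621804-57621833, minus strand: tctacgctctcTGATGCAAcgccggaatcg
YARS2, chr12:32756076-32756105, minus strand: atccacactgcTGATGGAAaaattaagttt
MARS, chr12:57488053-57488082, plus strand: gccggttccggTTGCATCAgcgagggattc
IARS, chr9:92293692-92293721, minus strand: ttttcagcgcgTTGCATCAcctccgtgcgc
In AARS, CARS, TARS, NARS, MARS and IARS the 8 letters were TGATGCAA or its reverse complement, and 5 of these elements began within 15 bases of the start. That of AARS began at position −187 from the start, and YARS2 carried the variant TGATGGAA at position −197. None of the 6 cytosolic genes with an element passed the test, and YARS2 fell. Of the other 5 genes that fell and had an entry, KARS, FARSB, IARS2, CARS2 and HARS, none held these letters. A match is a description of the window and not a binding site.

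Among other genes of the amino acid response some rose and some fell. Of 19 tested genes of this list, which holds ATF4 and non-synthetase targets, 2 rose and 4 fell, the median of the list being −0.17 on the log2 scale. These are 10.5% and 21.1% of the list, where 15.3% of all tested genes rose and 9.52% fell. PHGDH, the first enzyme of serine synthesis, rose to 139, 173 and 124 FPKM in shDLGAP5-1 cells, against 63.6, 65.7 and 82.5 FPKM in shNC-1 cells (log2 fold change 1.03, limma adjusted p = 0.00594). ASNS, asparagine synthetase, rose to 92.5, 106.8 and 76.5 FPKM in shDLGAP5-1 cells, against 53.5, 59.2 and 61.0 FPKM in shNC-1 cells (log2 fold change 0.65, adjusted p = 0.0175). TRIB3, a pseudokinase of the stress response, fell to 47.4, 52.9 and 46.2 FPKM in shDLGAP5-1 cells, against 98.6, 99.4 and 112.8 FPKM in shNC-1 cells (log2 fold change −1.07, adjusted p = 0.00129). SESN2, a leucine sensor, fell by 0.82 on the log2 scale, SLC7A5, a transporter of large neutral amino acids, by 0.77, and ATF3, a transcription factor of the same response, by 0.70. The calls of ASNS and ATF3 were lost without shNC-1 replicate 1 (adjusted p = 0.0693 and 0.0534) or 2 (adjusted p = 0.0620 and 0.0649). ATF4 itself, which is largely controlled at translation, had 639, 544 and 471 FPKM in shDLGAP5-1 cells and 385, 415 and 452 FPKM in shNC-1 cells. The groups did not overlap, but the difference did not pass (log2 fold change 0.39, adjusted p = 0.0915).

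**Figure D4:**
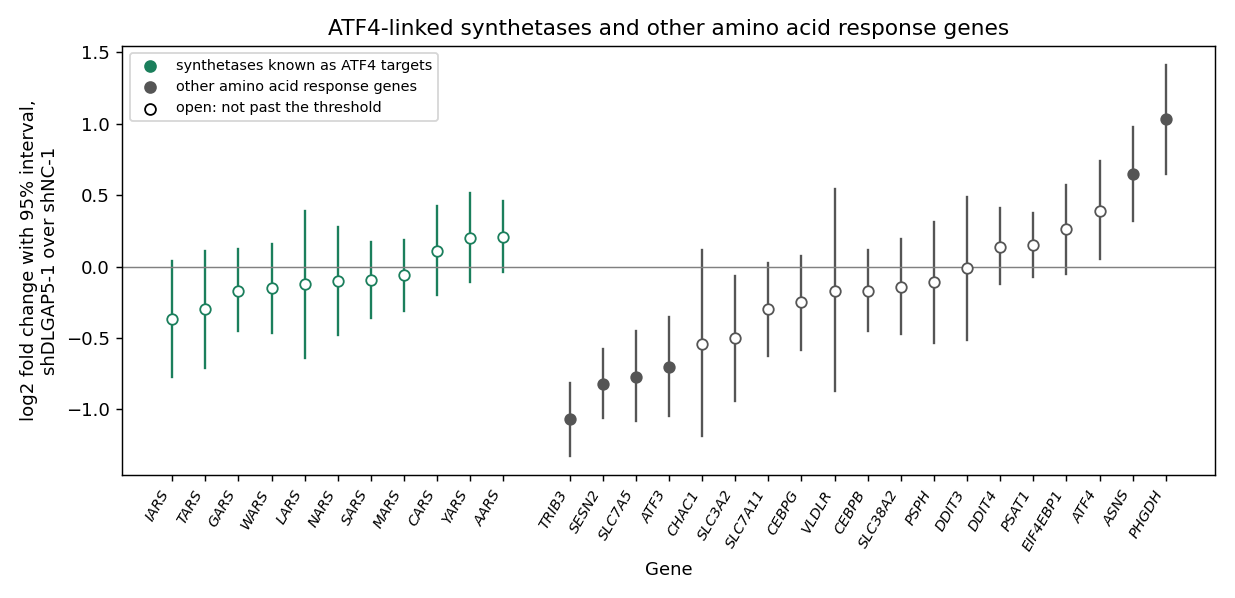
Log2 fold change (shDLGAP5-1 over shNC-1, y axis) with 95% intervals for the 11 synthetase genes known as ATF4 targets (green) and the 19 tested genes of the amino acid response list (grey), with filled points past the threshold. The green points lie between −0.37 and 0.21 and are all open, and the grey points run from −1.07 for TRIB3 to 1.03 for PHGDH.

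WARS, the cytosolic tryptophan enzyme, is known as an interferon-induced gene, but did not rise. It had 28.4, 37.8 and 36.4 FPKM in shDLGAP5-1 cells and 39.8, 37.4 and 36.4 FPKM in shNC-1 cells, with overlapping groups (log2 fold change −0.15, standard error 0.13, limma adjusted p = 0.426). Its ratio had a 95% interval of 0.726 to 1.11, so an increase above 1.11-fold lay outside it. In the same libraries 14 of 15 tested interferon genes rose (93.3%, beside 15.3% of all tested genes; median 1.55 on the log2 scale), among them DDX58, the RNA sensor RIG-I, by 1.64, and IRF1, a transcription factor of the interferon-gamma response named after its value was seen, by 0.84. Of the 14, 1 met the expression filter only through its shDLGAP5-1 values, so the filter itself favoured its rise. It is still counted here. The interferon-stimulated response element, searched as GAAA, any 2 bases and GAAA again, and the STAT element, TTCNNNGAA, were not in the RefSeq promoter window of WARS, which covers 1 start only. The first was in 1 of 29 member windows, EARS2, and in 3.57% of all windows, the second in 4 of 29 and 7.67%. The E2F letters TTTNGCGC were in 3 member windows, EARS2, GARS and IARS, and in 1.78% of all windows. WARS shares 287 exonic bases with WDR25 on the opposite strand. WARS2 had 3.25, 3.36 and 3.96 FPKM in shDLGAP5-1 cells and 4.34, 3.89 and 3.84 FPKM in shNC-1 cells (log2 fold change −0.15, adjusted p = 0.386).

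The cytosolic and the mitochondrial gene were compared for 14 amino acids, and their log2 ratio within a library does not depend on how the library is scaled. With FARSA and FARSB each set against FARS2 there were 15 ratios, given as a description without a test. Of these 15, 5 had no overlap between groups, a smaller share than the 43.9% of single genes tested with that pattern. The share over ratios of other gene pairs was not tested. Among the 5, the ratios with CARS2, YARS2, VARS or FARSB each hold a gene that fell. The cytosolic share was higher in shDLGAP5-1 cells for cysteine and tyrosine. The log2 ratio of CARS to CARS2 was 1.82, 1.79 and 1.76 in shDLGAP5-1 libraries, against 1.34, 0.84 and 1.19 in shNC-1 libraries. That of YARS to YARS2 was 1.62, 1.82 and 1.59 in shDLGAP5-1 libraries, against 0.82, 1.28 and 0.87 in shNC-1 libraries.

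The cytosolic share was lower for valine and arginine, and for phenylalanine when taken from FARSB but not from FARSA. The log2 ratio of VARS to VARS2 was 1.83, 1.69 and 1.67 in shDLGAP5-1 libraries, against 2.24, 1.99 and 2.10 in shNC-1 libraries. That of FARSB to FARS2 was 0.014, 0.12 and 0.67 in shDLGAP5-1 libraries, against 1.48, 1.39 and 1.01 in shNC-1 libraries, the difference of the means being −1.02. The log2 ratio of FARSA to FARS2 was 1.03, 1.35 and 2.08 in shDLGAP5-1 libraries and 2.90, 2.33 and 2.00 in shNC-1 libraries, so these groups overlapped. For arginine the mean log2 ratio of RARS to RARS2 was 1.76 ± 0.11 in shDLGAP5-1 libraries and 2.02 ± 0.084 in shNC-1 libraries (SD, n = 3 each). For tryptophan the mean log2 ratio of WARS to WARS2 was 3.27 ± 0.19 in shDLGAP5-1 libraries and 3.24 ± 0.035 in shNC-1 libraries, the smallest difference of the 15.

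**Figure D5:**
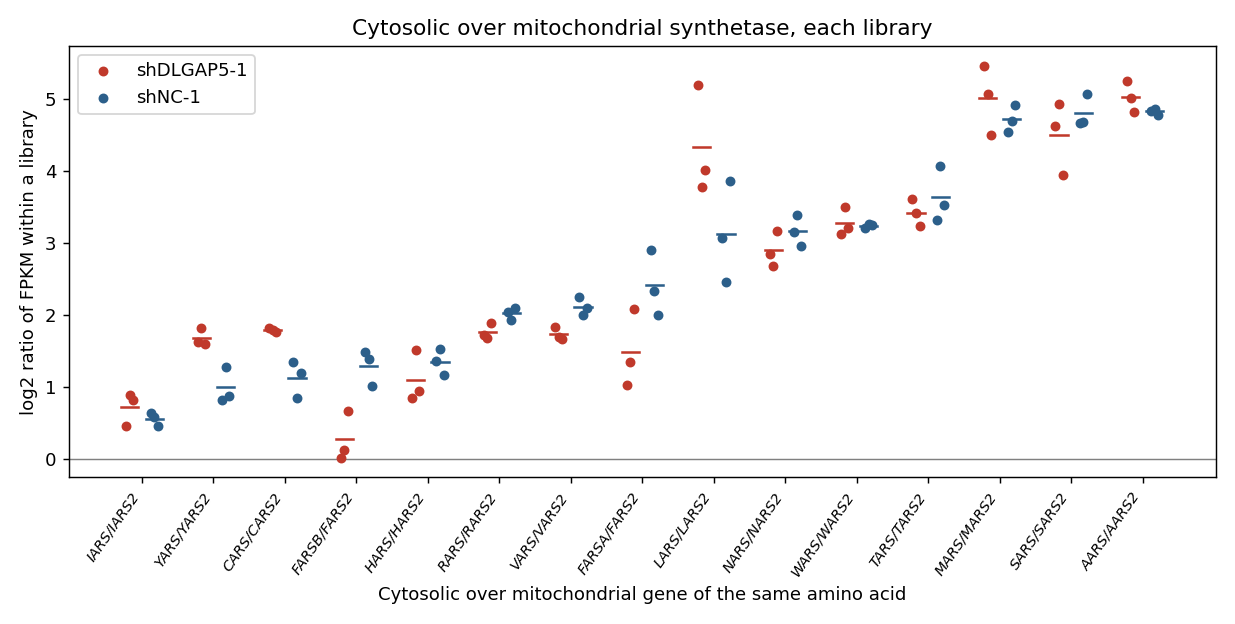
Log2 ratio of the FPKM of the cytosolic to the mitochondrial gene of each amino acid (y axis; pairs on the x axis, sorted by the shNC-1 mean), with a point for each library, shDLGAP5-1 in red left of shNC-1 in blue, and bars at group means. The ratios for YARS and CARS are higher in all shDLGAP5-1 libraries, and those for FARSB, RARS and VARS lower.

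Genes that act on tRNA before or after charging were described from lists. The 10 tRNA charging partners include the GATB, GATC and QRSL1 subunits that make mitochondrial glutaminyl-tRNA. Of these 10, 0 passed the limma test, where 15.3% of all tested genes rose and 9.52% fell. An unadjusted limma p under 0.05 was reached by 1 of them, or 10.0%, and by 38.6% of all tested genes. The median of the 10 was 0.021 on the log2 scale. Of 14 genes of tRNA modification and ligation 5 fell and 0 rose, so 35.7% fell, where 9.52% of all tested genes fell. An unadjusted p under 0.05 was reached by 10 of the 14, each of them lower, and by 15.8% of all tested genes on the lower side. The list's median was −0.39 on the log2 scale. TRMT6, a subunit of the tRNA adenosine methyltransferase, fell to 10.2, 6.69 and 9.66 FPKM in shDLGAP5-1 cells, against 18.3, 18.4 and 19.4 FPKM in shNC-1 cells (log2 fold change −1.02, limma adjusted p = 0.00579). NSUN2, a tRNA cytosine methyltransferase, fell to 20.5, 25.9 and 26.5 FPKM in shDLGAP5-1 cells, against 44.6, 42.1 and 39.4 FPKM in shNC-1 cells (log2 fold change −0.77, adjusted p = 0.00700). RTCB, the ligase that joins spliced tRNA, fell to 39.8, 49.2 and 45.4 FPKM in shDLGAP5-1 cells, against 65.4, 67.1 and 73.7 FPKM in shNC-1 cells (log2 fold change −0.61, adjusted p = 0.0109). The calls of these 3 genes held in all 15 alternatives. ELP3, of the Elongator complex, fell by 0.56 and TRDMT1, another tRNA methyltransferase, by 0.69 on the log2 scale. Without any 1 library other than shDLGAP5-1 replicate 3, ELP3 had an adjusted p of 0.0534 to 0.139, and TRDMT1 lost its call without any 1 library except shNC-1 replicate 3, at 0.0715 to 0.154.

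Of 10 elongation factors that take charged tRNA or move it, 1 rose and 1 fell (list median 0.18 on the log2 scale), 10.0% in each direction, where 15.3% of all tested genes rose and 9.52% fell. EEF1A2, the form of the tRNA-delivering factor known from muscle and nerve, rose to 103, 115 and 74.3 FPKM in shDLGAP5-1 cells, against 22.1, 22.9 and 24.3 FPKM in shNC-1 cells (log2 fold change 2.01, limma adjusted p = 0.000912, held in all 15 alternatives). EEF1A1, the ubiquitous form, remained far more abundant, at 2972 to 3318 FPKM in shDLGAP5-1 cells and 2650 to 2796 FPKM in shNC-1 cells, and did not pass (log2 fold change 0.19, adjusted p = 0.350). GFM1, the mitochondrial translocation factor, fell to 10.8, 13.1 and 14.5 FPKM in shDLGAP5-1 cells, against 19.7, 19.9 and 18.0 FPKM in shNC-1 cells (log2 fold change −0.56, adjusted p = 0.0218). Its call was lost without shNC-1 replicate 1 (adjusted p = 0.0796) or 2 (adjusted p = 0.0874) or shDLGAP5-1 replicate 2 (adjusted p = 0.0546). TARSL2, the threonine enzyme outside the rule, had 2.16, 2.58 and 2.16 FPKM in shDLGAP5-1 cells and 1.82, 2.58 and 2.38 FPKM in shNC-1 cells (log2 fold change 0.022, adjusted p = 0.924).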

How the data were processed

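RNA sequencing of 6 libraries of T24 cells was grouped by sample titles. The authors deposited 1 table of normalized values, read as FPKM because the values are not whole, differ in their sums and step with gene length; its header names no unit. The sources used here give no aligner, quantifier or strand setting. The control columns carry NC; the others carry a construct number and go to the only other group. Of the gene IDs 99.5% are in GENCODE release 29, and 50949 of them have its GRCh38 coordinates.

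A gene was kept if 3 or more libraries had 1 FPKM or more, and limma 3.58.1 (R 4.3.3) was fitted on log2(FPKM + 1), with a trended variance and Benjamini-Hochberg adjustment over all genes tested (threshold 0.05). This scale understates changes of low genes. The fit was checked on data with known changes. No count test was run, since FPKM are not counts. Annotated overlaps are unions of GENCODE release 29 exons, and 19 of the 36 members have the same coordinates in the deposited table. Promoters are from RefSeq, GRCh38.p14, matched by current symbol. Values in every library are given for members past the threshold, the 5 most abundant members, and pairs of which 1 passed, as well as for DLGAP5, EPRS, TARSL2, the scaffolds and up to 6 genes past the threshold in each partner list, by smallest p. Other genes with values in every library were chosen after their values were seen. Members and lists were chosen with earlier results of these data known. Counts cover all members and lists, apart from the pair ratios and the plots of single genes; 1 member and 1 interferon gene are not reported individually here.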

Additional observations from a re-analysis of the deposited data

How the results depend on the processing

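Alternatives changed 1 choice at a time. Genes that fell numbered 8 as reported, 9 with median-ratio scaling and 10 with the length trend removed. They numbered 4 with no filter, 1 with the replicate block, and 0 to 5 when 1 library was left out. The gene that rose was lost (0) with no filter, a filter of 5 FPKM, each other scaling, the length trend removed, the replicate block and when single libraries were left out, where the count ranged from 0 to 1; the 1 is EARS2. Over all genes, 1211 fell as reported, against 769 with no filter, 1890 with the length trend removed, 513 with the replicate block and 472 to 1364 without 1 library. Rises numbered 1944, against 1168 with a filter of 5 FPKM, 1282 with same-total scaling, 951 with the replicate block and 863 to 1777 without 1 library. Rises made up 61.6% of calls as reported, 52.1% with the filter of 5 FPKM, 48.1% with same-total scaling, 52.4% with median-ratio scaling, 50.8% after quantile normalization and 50.04% after the length trend was removed. After centring on group means, libraries of the same number correlated at −0.155, 0.021 and −0.157, and other pairs at −0.0654 to 0.193. Centring within each group makes such values balance around 0, so they cannot show whether the samples were paired. With the number as a block only VARS kept its call. With same-total scaling, chosen after seeing the data, 16 synthetase genes rather than 13 were lower with no overlap, and 1 rather than 2 was higher. The cytosolic median, −0.12 as reported, was −0.23 with same-total scaling, −0.061 with quantile normalization and −0.20 to −0.13 without 1 library. The median of all tested genes moved as well, from 0.034 to −0.059 with same-total scaling and −0.018 with quantile normalization. The family median less that of all genes was −0.19 both as reported and with same-total scaling. With quantile normalization this difference was −0.12. The mitochondrial median, −0.15 as reported, was −0.30 with quantile normalization and −0.22 to −0.073 without 1 library, the value nearest 0 being that without shDLGAP5-1 replicate 1.

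Signs reversed for genes near 0 that never passed. AARS2 (0.014) turned to −0.069 with same-total scaling, −0.15 with quantile normalization, −0.027 with median-ratio scaling and −0.0057 with the length trend removed, and lay at −0.062 to 0.14 without 1 library. TARSL2 turned to −0.055, −0.17, −0.014 and −0.0061 in the same settings and lay at −0.079 to 0.092 without 1 library. MARS turned to 0.012 with quantile normalization. Leaving out 1 library also turned signs: DARS ranged from −0.28 to 0.12, LARS from −0.29 to 0.074, NARS from −0.18 to 0.033, RARS2 from −0.057 to 0.017 and SARS2 from −0.063 to 0.31. The cause of these moves was not tested. FPKM do not give the number of fragments behind each gene's value, so the counting error of single genes is unknown.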
